A study of Drosophila melanogaster with 54 samples.

Results

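The genes described here belong to 4 families of cell-surface recognition proteins of the fruit fly Drosophila melanogaster: dpr (21 genes), DIP (10 genes), beat (14 genes) and side (8 genes). They are the gene entries whose FlyBase symbol is dpr followed by a digit or begins with DIP-, beat- or side, 53 of the 17481 entries counted. RNA was sequenced from 54 whole embryos, 1 library per embryo, sorted by morphology into stage 4 (n = 5), stage 5 (n = 9), stage 6 (n = 5), stage 8 (n = 5), stage 10 (n = 9), stage 12 (n = 5), stage 13 (n = 8) and stage 15 (n = 8). The labels name tissue and stage only: genotype, strain, sex, parents, age in hours and treatment are not given, and p-values therefore speak only of how far these embryos varied. Each embryo is called here by the letter in its label. Levels are given in CPM, the standard read count normalised to the gene reads of the library, with TMM scaling between libraries. They come from counts made without regard to strand unless stated, and 1 CPM was 4.71 reads at the median depth.

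Dpr proteins and DIPs (Dpr-interacting proteins) are small immunoglobulin-domain proteins on the neuronal surface, and members of one family bind chosen members of the other. The pairs are known for their part in matching synaptic partners and in neuron survival. Beat proteins are a further immunoglobulin family, and several bind side proteins, their larger partners. In the founding pair, beaten path (beat-Ia) is made by motor neurons, and its ligand sidestep (side) lies on the cells along which motor axons travel and on muscle. The stages run through the blastoderm before cells have formed (stage 4), cellularization (stage 5), gastrulation (stage 6), germ band extension (stages 8 and 10), germ band retraction (stage 12) and the differentiation of nerve cord and muscle (stages 13 and 15).

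Gene reads per embryo numbered 1632448 to 12863155, with a median of 4713817. The libraries of 46 embryos kept strand information, and those of embryos A, B, F and G of stages 13 and 15 did not. Of the 18 genes listed as neuron markers, 17 could be tested, and 17 were higher at stage 15 than at stage 4. So were all 6 glia, 5 neuroblast and 6 muscle markers, and 52.8% of all genes tested. The summed level of the neuron markers was 1961 to 2718 CPM at stage 15, against 60.3 to 81.9 CPM at stage 4. Few genes carried much of the sum: Syx1A averaged 56.8 CPM at stage 4, and elav averaged 898 CPM at stage 15. At stage 5 elav already averaged 202.5 CPM and Syx1A 144.9 CPM. In whole embryos, fewer cells of a type and less RNA per cell cannot be told apart.

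Only 3 of the 53 genes averaged 1 CPM or more at stage 4, namely dpr6, DIP-alpha and beat-Ib. The number was 18 at stage 5, 17 at both stage 6 and stage 8, 20 at stage 10 and 18 at stage 12. It then reached 23 at stage 13 and 40 at stage 15. Of all 17481 entries, 37.7% stood at 1 CPM or more in stage 4 embryos, 47.2% by stage 5 and 54.4% by stage 15. These counts disregard strand, and some genes reached 1 CPM mostly through reads opposite to the gene. In stage 5 libraries such reads numbered 51 for DIP-iota (1 on its own strand) and 53 for dpr18 (18). For stage 8 they were 29 for DIP-gamma (0) and 38 for dpr14 (4), and for stage 10, 38 for DIP-theta (0). The highest stage mean fell at stage 15 for 34 genes. Among these, beat-IIIb, beat-Vb, beat-Vc, dpr2, dpr4 and dpr21 stayed under 1 CPM even there. The share of all entries highest at stage 15 is not given here, so the 34 cannot be set against it. beat-IIIa had no reads in any embryo. Per length of exon, which allows genes to be set side by side, the gene with the highest mean level was dpr6 at stage 4 (5.76 ± 2.88 CPM per kb, SD, n = 5) and dpr19 at stage 5 (6.31 ± 1.12 CPM per kb, n = 9). It was beat-IIIc at stage 6 (28.9 ± 6.20 CPM per kb, n = 5) and stage 8 (34.0 ± 5.58 CPM per kb, n = 5). From stage 10 on it was side-V, with 21.5 ± 4.76 CPM per kb (stage 10, n = 9), 33.2 ± 11.1 (stage 12, n = 5), 57.5 ± 4.36 (stage 13, n = 8) and 38.5 ± 2.51 CPM per kb (stage 15, n = 8). At stage 15 this order depended on strand, since side-IV stood at 52.6 CPM per kb and side-V at 37.9 CPM per kb when only reads of the gene's own strand were counted in the 4 embryos that allow it.

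**Figure D1:**
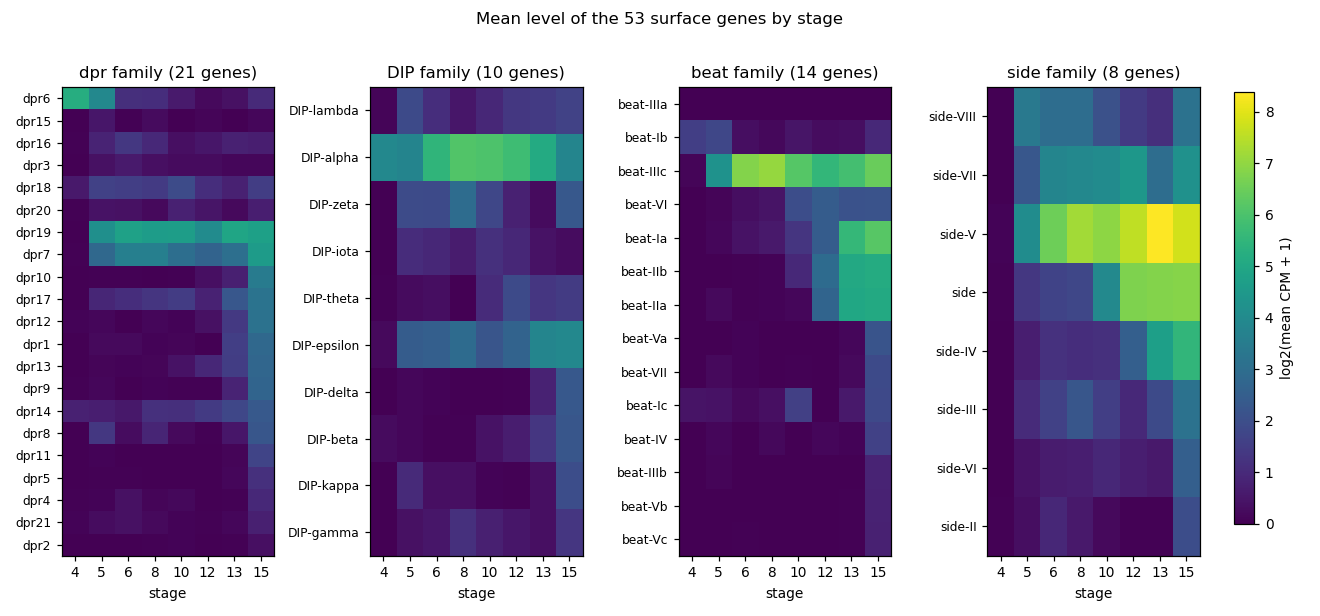
Mean level of each of the 53 genes (a panel per family, ordered down the page by the stage of the highest mean) at the 8 stages (left to right), as log2(mean CPM + 1). dpr6 is bright at stage 4, dpr19, beat-IIIc and side-V from stage 5 on, beat-Ia, beat-IIa, beat-IIb and side-IV from stage 13 on, and dpr10 and dpr11 are raised at stage 15.

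Whether reads came from the gene itself was checked in the 46 libraries with strand. Of the 53 genes, 40 had at least 80% of their reads on their own strand, 12 had less, and beat-IIIa had none to judge. Among the 12, DIP-iota had 9.79%, DIP-theta 19.0%, dpr3 19.1%, DIP-gamma 23.8% and dpr18 41.0% of reads on the gene's strand. The others were dpr15, dpr21, dpr14, DIP-lambda, dpr20, side-VI and dpr13, at 53.9% to 79.7%. DIP-theta is the clearest case among genes that were tested. It averaged 2.72 CPM at stage 12, yet all 69 reads there lay on the opposite strand and 0 on its own.

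For side-IV the counts without strand understated the gene. Its exons lie opposite those of the antisense transcript asRNA:CR17025 over 895 of 5123 bases, and reads that fall in 2 genes are not counted without strand information. The part of this overlap in the difference was not tested. In the same 46 libraries side-IV had 12278 reads on its own strand, against 2040 reads without regard to strand, a ratio of 6.02. The next highest ratio among the genes with at least 50 reads without strand was 1.05, for dpr7. Below that number, dpr4 had 61 reads on its own strand against 44 without strand. By its own strand side-IV averaged 269 ± 11.8 CPM at stage 15 and 147 ± 16.9 CPM at stage 13 (SD, n = 4 each), where the counts without strand gave 45.0 ± 4.10 CPM and 25.6 ± 5.06 CPM (n = 8 each).

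**Figure D2:**
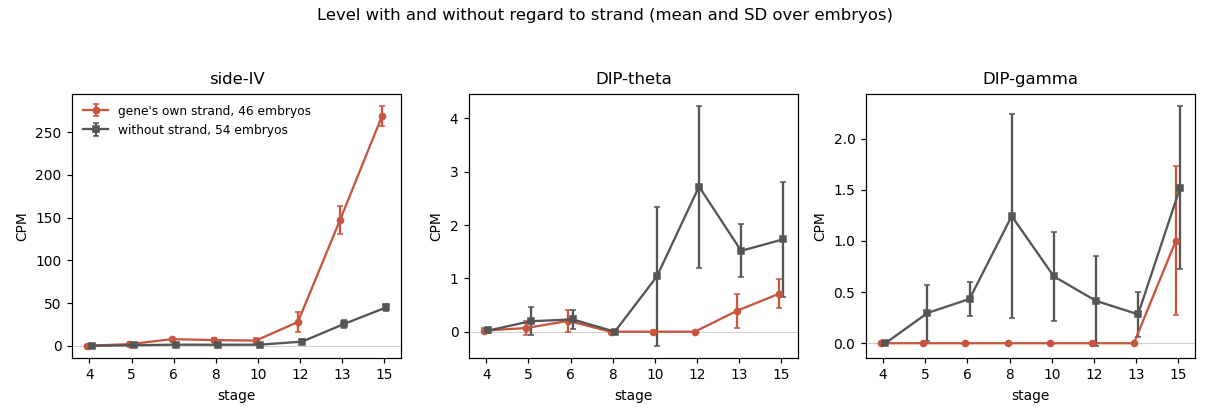
Level in CPM by stage of side-IV, DIP-theta and DIP-gamma from reads on the gene's own strand (46 embryos) and from reads counted without strand (54 embryos); points are means and bars are SD. Side-IV is higher on its own strand, DIP-theta has 0 reads on its own strand at stages 8, 10 and 12, and DIP-gamma has 0 before stage 15.

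Differences between stages were tested with edgeR's quasi-likelihood test in 1 fit of all 54 embryos over 9783 genes, with Benjamini-Hochberg adjusted p-values and a threshold of 0.05. A filter on low counts kept 38 of the 53 genes: 13 dpr, 8 DIP, 9 beat and 8 side. Genes silent at most stages pass that filter through the stages where they are high, which favours calls of a rise to those stages. The counts below are set beside the share called among all genes tested, which does not remove this effect. With stages 5 and 4 alone, 10 of the recognition genes and 7446 of all genes passed the filter. With stages 15 and 13 alone, 27 and 8812 passed.

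Few of these genes had RNA at stage 4. dpr6, whose protein is one of the partners of DIP-alpha, had 15.0, 58.4, 42.3, 20.3 and 45.9 CPM in embryos B, C, D, G and H of stage 4. At stage 5 it ranged over 3.81, 12.2 and 33.4 CPM (lowest, median and highest of 9 embryos), and at stage 6 it had 0.567 to 2.41 CPM. The stage 5 and stage 4 ranges overlapped, while every stage 6 embryo was below every stage 5 embryo. The log2 change was -1.35 ± 0.33 (SE) at stage 5 against stage 4 (adjusted p = 2.57e-04) and -3.58 ± 0.49 at stage 6 against stage 5 (adjusted p = 1.35e-08). Its mean stayed at or under 1.14 CPM from stage 8 to stage 13 and was 1.01 ± 0.32 CPM at stage 15 (SD, n = 8), which the test called higher than stage 13 (log2 change 1.72 ± 0.59, adjusted p = 0.0118). That last call was lost in the libraries with strand alone, where the log2 change was 1.42 and the adjusted p 0.206.

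DIP-alpha, which binds dpr6 and dpr10 proteins, was also present at stage 4, at 10.3, 19.8, 16.1, 10.7 and 12.5 CPM in embryos B, C, D, G and H. It was higher at stage 6 than at stage 5 (43.6 ± 20.7 CPM, n = 5, and 12.6 ± 4.31 CPM, n = 9; log2 change 1.77 ± 0.28, adjusted p = 2.65e-07), and no stage 6 embryo was as low as any stage 5 embryo. The highest mean was 67.7 ± 26.9 CPM at stage 8, followed by means of 64.6 ± 24.2 CPM (stage 10), 53.8 ± 18.2 (stage 12), 34.0 ± 7.68 (stage 13) and 13.0 ± 4.36 CPM (stage 15). The fall at stage 15 against stage 13 had a log2 change of -1.37 ± 0.25 (adjusted p = 5.59e-06), with no overlap between the embryos of the stages. The smaller fall at stage 13 against stage 12 (log2 change -0.64 ± 0.27, adjusted p = 0.0373) was lost without embryo C or G of stage 12 or A or F of stage 13 (adjusted p 0.0532 to 0.140). It was also lost under 7 other ways of processing, among them DESeq2's test (adjusted p = 0.0511), no filter on low counts (0.0516) and the libraries with strand alone (0.155). Between stage 8 and stage 6 no change was called (adjusted p = 0.132), but without embryo C of stage 6, the highest of its stage at 79.6 CPM, the log2 change was 0.98 (adjusted p = 0.0185).

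beat-Ib, a relative of beat-Ia, was the third gene present early, at 4.11, 1.07, 1.26, 2.65 and 0.734 CPM in embryos B, C, D, G and H of stage 4. It averaged 2.48 ± 0.97 CPM at stage 5 (n = 9) and 0.238 ± 0.198 CPM at stage 6 (n = 5), and no stage 6 embryo reached the lowest stage 5 embryo. The log2 change at stage 6 against stage 5 was -3.33 ± 0.54 (adjusted p = 4.75e-07). It was higher again at stage 15 than at stage 13 (0.956 ± 0.254 and 0.247 ± 0.169 CPM, n = 8 each; log2 change 1.89 ± 0.44, adjusted p = 2.50e-04; in the libraries with strand alone the log2 change was 2.71).

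Stage 5, when the zygotic genome is first widely transcribed, brought 23 of the 38 tested genes up and 1 down against stage 4. Of all genes tested, 52.1% were higher and 30.6% lower. The median log2 change was 2.73 over the 38 genes and 0.72 over all genes. All 8 side genes were called higher, beside 7 of 13 dpr, 5 of 8 DIP and 3 of 9 beat genes, and dpr6 was the gene called lower. Many of these rises were of low genes: dpr1, dpr13, beat-IIa, beat-VII, DIP-delta and side-II had 3 to 8 reads over the 9 stage 5 embryos, and the call for DIP-delta was lost without embryo H of stage 5, that for side-II without any of the embryos B, C, G and H of stage 4 or C and D of stage 5. The 6 reads of beat-VII at stage 5 all lay opposite to the gene. On the gene's own strand 20 of the 23 rises were called, and beat-VII, dpr18 and side-II had too few reads to be tested.

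The large rises at stage 5 were of 6 genes. dpr19 had 11.7, 16.5 and 20.7 CPM (lowest, median, highest) at stage 5 and 0 reads at stage 4, at least 252-fold higher against a floor of 3 reads over the stage 4 embryos (adjusted p = 7.78e-30). side-VIII ranged from 5.20 to 14.2 CPM at stage 5 and also had 0 reads at stage 4, at least 142-fold higher (adjusted p = 2.30e-21). side-VII, with a stage 5 mean of 3.84 ± 1.78 CPM (n = 9) and 0 reads at stage 4, was at least 57.1-fold higher (adjusted p = 2.32e-14). These 3 genes had reads in every stage 5 embryo and in no stage 4 embryo.

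For side-V, beat-IIIc and dpr7 the stage 4 embryos held 1 to 3 reads in all. side-V ranged over 12.9, 14.2 and 23.1 CPM at stage 5, with 540 reads against 2 at stage 4, a ratio of 358 (95% interval of counting 98.5 to 2960; adjusted p = 2.51e-24). beat-IIIc ranged over 9.74, 18.7 and 33.2 CPM at stage 5, with 623 reads against 3, a ratio of 275 (93.7 to 1340; adjusted p = 1.16e-23). dpr7, which lies on the small chromosome 4, ranged over 4.81, 5.07 and 8.99 CPM, with 206 reads against 1, a ratio of 273 (48.4 to 10800; adjusted p = 5.24e-20). No role specific to dpr7, dpr19, side-V, side-VII or side-VIII is assigned here. Intervals and floors cover counting error only.

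Of the families' genes first at 1 CPM at stage 5, 15 in number, the median span on the genome was 40.5 kb, with a range of 3.74 kb (dpr19) to 379 kb (DIP-lambda). The 10 genes first at 1 CPM at stage 15 had a median span of 29.7 kb. All 53 had a median of 36.7 kb, while all protein-coding genes had 2.16 kb.

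At stage 6, 6 of the 38 genes were higher and 5 lower than at stage 5, where 28.0% and 21.5% of all genes tested were called. The rises were of genes already on. beat-IIIc reached 114.7, 122, 74.9, 111 and 141 CPM in embryos B, C, D, G and H of stage 6 (log2 change 2.62 ± 0.17, adjusted p = 9.03e-19). side-V reached 116, 73.7, 109, 71.9 and 85.2 CPM in the same embryos (log2 change 2.52 ± 0.16, adjusted p = 8.26e-20). For each gene every stage 6 embryo was above every stage 5 embryo. side-IV was not called without strand (adjusted p = 0.0524), but on its own strand it was higher at stage 6, with 7.68 ± 1.93 CPM (n = 5) and 1.76 ± 0.78 CPM at stage 5 (n = 9; log2 change 2.18 ± 0.33, adjusted p = 3.13e-07). side-VII (log2 change 1.75 ± 0.26, adjusted p = 1.56e-07), dpr7 and dpr19 rose as well, and the genes that fell were dpr6, beat-Ib, dpr8, DIP-kappa and DIP-lambda. The call for DIP-lambda (adjusted p = 0.0415) was lost without any of 7 embryos, D, E and I of stage 5 and B, C, D and H of stage 6 (adjusted p 0.0589 to 0.163). It was also lost with the embryo letter as a block (log2 change -0.81, adjusted p = 0.229), with no filter on low counts (0.0652) and in the libraries with strand alone (0.0509).

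Stages 8 and 6 differed least. side-V and dpr8 were higher at stage 8, 2 of 38 genes against 9.81% of all genes tested, and 0 were lower against 8.64%. For the falls the count was 1 gene (DIP-theta) at an unadjusted p under 0.05 and 0 by DESeq2. side-V averaged 146 ± 28.1 CPM at stage 8 and 91.3 ± 20.5 CPM at stage 6 (SD, n = 5 each; log2 change 0.67 ± 0.17, adjusted p = 0.00224). beat-IIIc averaged 133 ± 21.8 CPM at stage 8, its highest mean, without a call. The call for dpr8 (0.823 and 0.221 CPM at stages 8 and 6, adjusted p = 0.0475) was lost under 6 of the other ways of processing and without any single embryo of the stages except H of either stage.

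At stage 10, 6 of the 38 genes were higher and 5 lower than at stage 8, against 25.6% and 24.9% of all genes tested. The rise that most embryos shared was that of side, the beat-Ia ligand. It ranged over 7.10, 11.1 and 31.3 CPM in the 9 stage 10 embryos, against 1.70, 1.86, 2.09, 3.12 and 3.50 CPM in embryos G, B, H, D and C of stage 8 (log2 change 2.53 ± 0.32, adjusted p = 2.63e-09). No stage 10 embryo was as low as a stage 8 embryo, and embryos E and I stood at 30.1 and 31.3 CPM while the other 7 did not pass 13.6 CPM. The summed level of the 18 neuron markers in the stage 10 embryos ran from 447 to 628 CPM, against 501.7 to 701.5 CPM at stage 8. Of the 17 markers tested, 3 were higher and 2 lower at stage 10 than at stage 8. elav averaged 320.5 CPM at stage 10 and 306.0 CPM at stage 8, and Syx1A 156.4 and 218.6 CPM.

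The beat genes called higher at stage 10 were beat-Ia, beat-Ic, beat-IIb and beat-VI. Each differed widely between embryos of the stage. beat-Ia had 4.50 CPM in embryo I and 0 in embryos B and F, and its call (log2 change 1.59 ± 0.60, adjusted p = 0.0249) was lost without embryo I of stage 10 or B or D of stage 8 (adjusted p 0.0530 to 0.127). beat-Ic had 9.0 CPM in embryo I and 0 in 4 embryos, and its call was lost without embryo I (adjusted p = 0.0764). beat-IIb had reads in 5 of 9 embryos, with 3.65 CPM in embryo I, and beat-VI in 8 of 9, with 7.50 CPM in embryo I. DIP-theta, the remaining call, rests on 38 reads that all lay opposite to the gene. Among the 5 falls, beat-IIIc averaged 71.5 ± 20.2 CPM at stage 10 and 133 ± 21.8 CPM at stage 8 (log2 change -0.88 ± 0.16, adjusted p = 9.75e-06). side-VIII averaged 3.19 ± 1.06 CPM at stage 10 and 6.99 ± 1.27 CPM at stage 8 (log2 change -1.12 ± 0.24, adjusted p = 1.41e-04), and no stage 10 embryo reached the lowest stage 8 embryo. The calls for dpr7 and DIP-epsilon were lost without embryo C of stage 8 (adjusted p 0.0609 and 0.107), and that for dpr8 without embryo B of stage 8 (0.0744).

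At stage 12, 9 of the 38 genes were higher and 5 lower than at stage 10, against 24.5% and 23.4% of all genes tested. side had 95.8, 122, 89.9, 132 and 99.1 CPM in embryos B, C, D, G and H of stage 12, all above the highest stage 10 embryo (31.3 CPM). Its log2 change was 2.92 ± 0.22 (adjusted p = 3.35e-16). After that it was level: 113 ± 13.0 CPM at stage 13 and 115.4 ± 6.19 CPM at stage 15 (n = 8 each), with no call in either step.

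**Figure D3:**
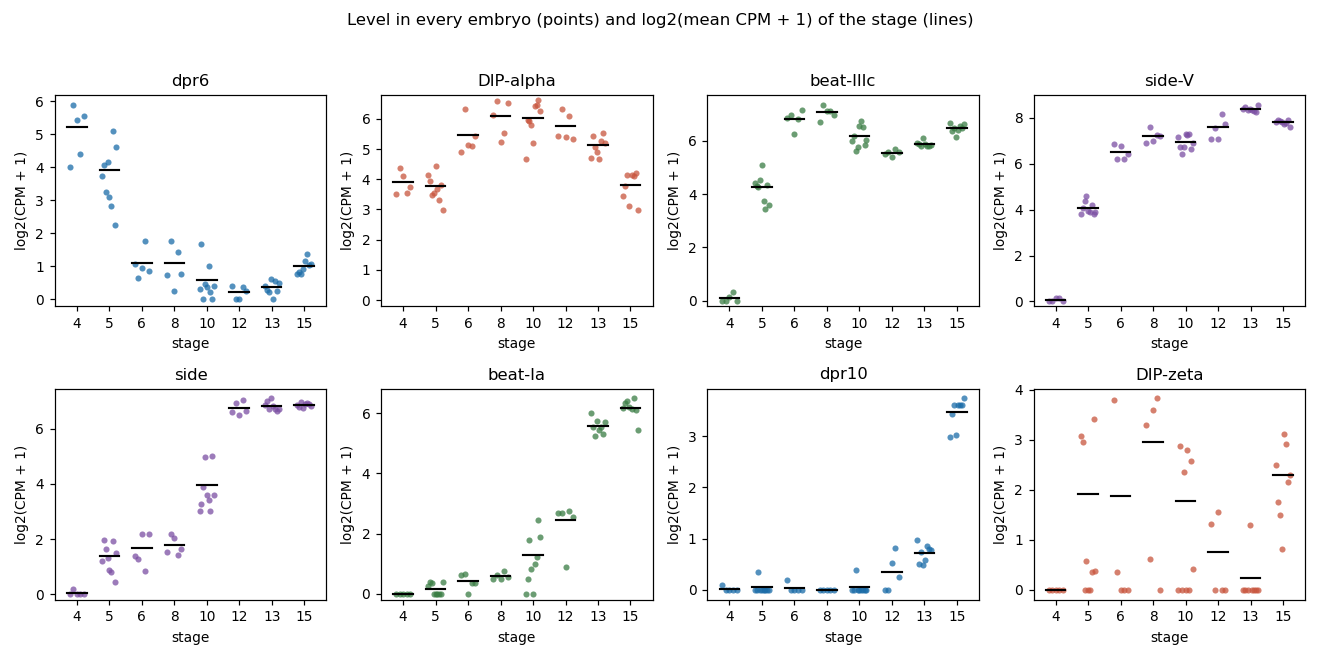
Level of 8 genes in every embryo, as log2(CPM + 1), by stage; points are embryos and lines are log2(mean CPM + 1) of the stage. dpr6 falls from its stage 4 level and DIP-alpha peaks at stage 8. side steps up at stages 10 and 12, beat-Ia most at stage 13 and dpr10 at stage 15. DIP-zeta is split into high and low embryos at stages 5 to 12.

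beat-IIa and beat-IIb, which neighbour each other on chromosome 3R, were the other main rises at stage 12. beat-IIa had 5.13, 0.597, 5.18, 7.90 and 8.84 CPM in embryos B, C, D, G and H of stage 12, while its highest stage 10 embryo had 0.429 CPM (log2 change 5.52 ± 0.44, adjusted p = 1.69e-14). Without embryo I of stage 10 the log2 change was 6.14. beat-IIb had 3.64, 4.18, 5.62, 6.68 and 13.1 CPM in embryos B, C, D, G and H of stage 12, and the stage 10 embryos ran from 0 to 3.65 CPM (log2 change 2.88 ± 0.46, adjusted p = 1.41e-06; 3.68 without embryo I of stage 10), so that the ranges met at embryo B of stage 12 and embryo I of stage 10. beat-Ia and side-IV also rose, with log2 changes of 1.60 ± 0.38 (adjusted p = 4.61e-04) and 2.03 ± 0.37 (adjusted p = 8.03e-06). The call for dpr10 rests on 8 reads against 1 and was lost without embryo G of stage 12 (adjusted p = 0.147). On the gene's own strand 7 of the 9 rises were called. The others were DIP-theta, not tested there, and dpr13, not called there: in the libraries with strand they had 69 and 21 reads at stage 12 opposite to the gene and 0 on its own strand.

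At stage 13, 16 of the 38 genes were higher and 2 lower than at stage 12, against 31.0% and 25.0% of all genes tested. The median log2 change was 1.00 over the 38 and 0.04 over all genes. beat-Ia had 36.8, 45.3 and 62.6 CPM (lowest, median, highest of 8) at stage 13, against 5.46, 5.37, 0.864, 5.77 and 4.80 CPM in embryos B, C, D, G and H of stage 12 (log2 change 3.39 ± 0.31, adjusted p = 4.32e-13). beat-IIa averaged 31.0 ± 4.74 CPM at stage 13 and 5.53 ± 3.21 CPM at stage 12 (log2 change 2.36 ± 0.25, adjusted p = 3.16e-11). beat-IIb averaged 32.5 ± 6.26 CPM at stage 13 and 6.64 ± 3.79 CPM at stage 12 (log2 change 2.25 ± 0.36, adjusted p = 1.42e-06). The embryos of the stages did not overlap for any of these 3 genes.

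side-IV, whose protein binds beat-IIb protein, rose beside them. Without strand the log2 change was 2.29 ± 0.30 (adjusted p = 9.29e-09), and on its own strand, with 147 ± 16.9 CPM at stage 13 (n = 4) and 27.8 ± 11.2 CPM at stage 12 (n = 5), it was 2.38 ± 0.25 (adjusted p = 3.01e-10). side-V reached its highest mean at stage 13, with 301, 326 and 378 CPM (lowest, median, highest), against 134 to 288 CPM at stage 12 (log2 change 0.79 ± 0.15, adjusted p = 1.19e-05). side-VII fell, averaging 6.97 ± 1.80 CPM at stage 13 and 20.6 ± 6.21 CPM at stage 12 (log2 change -1.58 ± 0.24, adjusted p = 3.14e-07), and no stage 13 embryo reached the lowest stage 12 embryo.

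Of the 13 dpr genes tested, 7 were higher at stage 13 than at stage 12. dpr1, named for a lost aversion of its mutant flies to salt, had 0.930, 1.90 and 2.87 CPM in the stage 13 embryos against 0 reads at stage 12, at least 15.4-fold higher (adjusted p = 1.35e-08). dpr9 had 40 reads at stage 13 against 1 at stage 12, a ratio of 19.5 (95% interval of counting 3.31 to 790; adjusted p = 7.98e-05). DIP-delta had 38 reads against 1, a ratio of 18.5 (3.13 to 752; adjusted p = 4.43e-04). dpr12, whose protein binds DIP-delta protein, averaged 1.59 ± 1.28 CPM at stage 13 and 0.302 ± 0.428 CPM at stage 12 (log2 change 2.40 ± 0.62, adjusted p = 0.00103; 4.31 without embryo G of stage 12).

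Neuron and muscle markers moved over the same steps. Of all genes tested, 31.0% were higher and 25.0% lower at stage 13 than at stage 12. At stage 15 against stage 13, 28.8% were higher and 27.1% lower. Of the 17 neuron markers tested, 11 were higher and 1 lower at stage 13 than at stage 12. At stage 15 against stage 13, 14 of these markers were higher and 1 lower. Their summed level was 1961 to 2718 CPM at stage 15, 1505 to 2108 CPM at stage 13 and 678 to 1299 CPM at stage 12. Within these sums, elav alone averaged 898 CPM at stage 15, 1233 CPM at stage 13 and 791 CPM at stage 12. Of the 6 muscle markers, 5 were higher and 0 lower at stage 13 than at stage 12. At stage 15 against stage 13, 4 were higher and 1 lower. The 6 muscle markers summed to 4543 to 9443 CPM at stage 15, 2778 to 3475 CPM at stage 13 and 1080 to 2118 CPM at stage 12. Of the 5 neuroblast markers, 5 were lower at stage 13 than at stage 12 and 5 were lower at stage 15 than at stage 13, with summed means of 501 CPM at stage 15, 972 CPM at stage 13 and 1527 CPM at stage 12. Of the 6 glia markers, 2 were higher and 1 lower at stage 13 than at stage 12, and 0 were higher and 2 lower at stage 15 than at stage 13. Their summed means were 740.3 CPM at stage 15, 824 CPM at stage 13 and 833 CPM at stage 12. The part of any of these cell types in the rises of the recognition genes was not tested. A list of other surface and guidance genes, 43 in number with 41 tested, had 11 higher and 10 lower at stage 15 than at stage 13. At stage 13 against stage 12 it had 15 higher and 9 lower. The list rose at other steps too. At stage 5 against stage 4 it had 33 higher and 2 lower, beside 52.1% and 30.6% of all genes tested. At stage 6 against stage 5 it had 20 and 7 (28.0% and 21.5% of all genes). At stage 12 against stage 10 it had 19 and 3 (24.5% and 23.4%). At stage 15 against stage 4 it had 38 and 1 (52.8% and 35.7%).

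At stage 15, 28 of the 38 genes were higher and 2 lower than at stage 13, while 28.8% and 27.1% of all genes tested were called. The median log2 change was 1.57 over the 38 genes and -0.01 over all genes. The rises took in 12 of 13 dpr genes, 4 of 8 DIP, 6 of 9 beat and 6 of 8 side genes, and DIP-alpha and side-V fell. Among the 32 tested genes with at least 80% of reads on their own strand, 24 rose and 2 fell. In the 46 libraries with strand, which leave 4 embryos at each of the stages, 16 of 34 tested genes were higher, against 19.7% of all genes, and on the gene's own strand 16 of 32, against 22.1%. A fit of the embryos of these stages alone tested 27 of the genes and called 18 higher, against 33.1% of all genes.

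**Figure D4:**
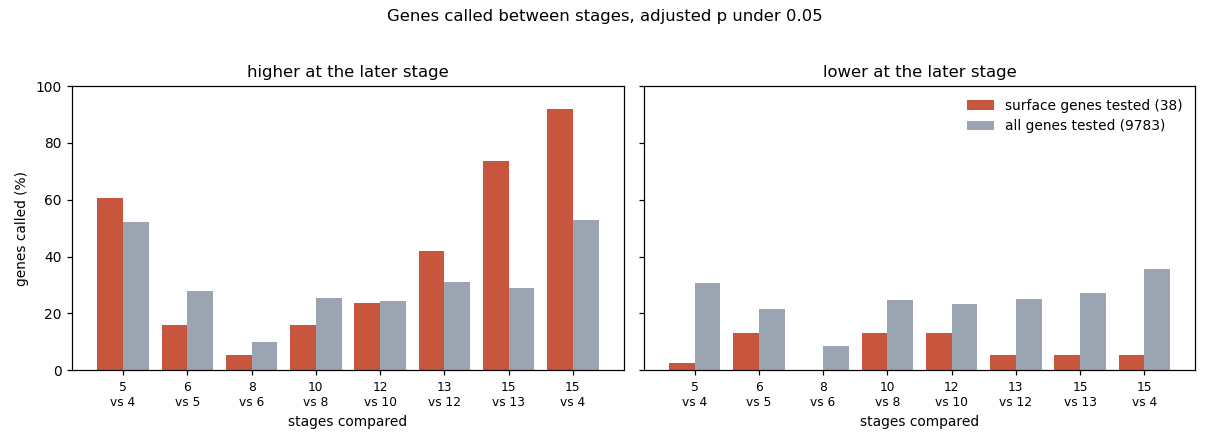
Share of genes called higher (left) or lower (right) at the later of the stages compared, in percent, for the 38 tested recognition genes and for all 9783 genes tested. The bars of the recognition genes stand above those of all genes for rises at stages 5, 13 and 15, at 73.7% against 28.8% for stage 15 over stage 13. They stand below them for rises at stages 6, 8, 10 and 12, and for falls in every comparison. Genes high only at late stages passed the filter through those stages, which favours rises there.

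dpr10, the other dpr partner of DIP-alpha, had 6.91, 11.2 and 12.4 CPM (lowest, median, highest) at stage 15, against 0.399, 0.683 and 0.972 CPM at stage 13 (log2 change 3.93 ± 0.28, adjusted p = 2.36e-16). dpr11, whose protein binds DIP-gamma protein, had 1.15, 2.56 and 3.36 CPM at stage 15, against at most 0.324 CPM at stage 13 (log2 change 4.49 ± 0.48, adjusted p = 5.32e-09; it was not tested on the gene's own strand). dpr9 averaged 5.44 ± 2.05 CPM at stage 15 and 0.789 ± 0.511 CPM at stage 13 (log2 change 2.74 ± 0.33, adjusted p = 1.03e-09).

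dpr12 and dpr1 continued their rise. dpr12 averaged 7.96 ± 2.08 CPM at stage 15 and 1.59 ± 1.28 CPM at stage 13 (log2 change 2.29 ± 0.36, adjusted p = 4.44e-07), and dpr1 averaged 6.12 ± 1.53 CPM at stage 15 and 1.91 ± 0.59 CPM at stage 13 (log2 change 1.68 ± 0.29, adjusted p = 4.74e-06). dpr7, on since stage 5, rose as well, with 23.1 ± 3.28 CPM at stage 15 and 7.35 ± 2.62 CPM at stage 13 (log2 change 1.65 ± 0.18, adjusted p = 4.93e-11). For all of dpr1, dpr7, dpr9, dpr10, dpr11 and dpr12 every stage 15 embryo was above every stage 13 embryo. dpr19, the dpr gene not called, averaged 26.4 ± 2.97 CPM at stage 15 and 29.4 ± 2.02 CPM at stage 13 (log2 change -0.15, adjusted p = 0.244; in the fit of these stages alone it was called lower, adjusted p = 0.0311). The summed level of the 21 dpr genes was 110.6 ± 8.64 CPM at stage 15, 52.5 ± 7.08 CPM at stage 13 and 27.3 ± 2.71 CPM at stage 12, the lowest stage mean.

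In the other families the late rises were also of low genes. side-II, whose protein binds beat-VI protein, had 1.05, 2.72 and 5.604 CPM at stage 15, with 156 reads against 2 at stage 13, a ratio of 75.8 (95% interval of counting 20.6 to 631; adjusted p = 2.34e-09). beat-Va, a binding partner of side-VI, had 1.67, 3.76 and 4.95 CPM at stage 15 and at most 0.486 CPM at stage 13 (log2 change 4.63 ± 0.46, adjusted p = 6.19e-09; 5.26 without embryo A of stage 13). side-VI averaged 4.79 ± 2.55 CPM at stage 15 and 0.498 ± 0.613 CPM at stage 13 (log2 change 3.25 ± 0.56, adjusted p = 2.60e-06). On the gene's own strand side-VI had 108 reads at stage 15 and 2 at stage 13, with a log2 change of 5.29. side-II and beat-Va were not tested on the gene's own strand, for too few reads in the libraries with strand.

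beat-Ia, beat-IIIc, side-IV and side-V, which were high already, changed less. beat-Ia averaged 71.9 ± 14.3 CPM at stage 15 and 46.9 ± 8.39 CPM at stage 13 (log2 change 0.62 ± 0.21, adjusted p = 0.0102), and the lowest stage 15 embryo, I, had 42.2 CPM, within the stage 13 range. beat-IIIc averaged 87.6 ± 9.81 CPM at stage 15 and 58.0 ± 4.26 CPM at stage 13 (log2 change 0.59 ± 0.15, adjusted p = 6.93e-04). In the libraries with strand alone the calls for beat-Ia (adjusted p = 0.229), beat-IIIc (0.0640) and side-IV (0.0661) were lost, although on its own strand side-IV kept its call (log2 change 0.87 ± 0.25, adjusted p = 0.00513). side-V fell to 193, 223 and 239 CPM (lowest, median, highest) at stage 15, against 301 to 378 CPM at stage 13 (log2 change -0.58 ± 0.13, adjusted p = 1.20e-04). side-VII and side-VIII, lower at stage 13 than those 4 genes, rose more, to 17.8 ± 3.26 and 7.99 ± 1.80 CPM at stage 15. At stage 13 they had 6.97 ± 1.80 and 1.18 ± 0.48 CPM (log2 changes 1.35 ± 0.22, adjusted p = 7.36e-07, and 2.73 ± 0.24, adjusted p = 1.12e-13).

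The remaining genes followed several courses. DIP-epsilon averaged 4.39 ± 0.74 CPM at stage 5 and 0.148 CPM at stage 4 (log2 change 4.63 ± 0.45, adjusted p = 1.03e-13), and its next rise came at stage 13, with 13.2 ± 3.79 CPM there and 5.39 ± 3.11 CPM at stage 12 (log2 change 1.31 ± 0.28, adjusted p = 8.98e-05). dpr8 was raised at stage 5 (1.58 ± 1.23 CPM), at most 0.823 CPM on average from stage 6 to stage 13, and 3.75 ± 1.38 CPM at stage 15, against 0.413 CPM at stage 13 (log2 change 3.09 ± 0.42, adjusted p = 1.96e-08). DIP-kappa had a like course, with 1.00 ± 1.11 CPM at stage 5 and 2.92 ± 0.98 CPM at stage 15, against 0.265 CPM at stage 13 (log2 change 3.35 ± 0.51, adjusted p = 2.09e-07). Between these stages dpr8 was not silent: on its own strand it averaged 0.811 CPM at stage 8 (0.457 to 1.44 CPM, n = 5). DIP-kappa had reads in 5 of the 9 stage 5 embryos, and its own-strand means were 0.0426 to 0.286 CPM from stage 6 to stage 13.

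dpr17, dpr13, DIP-beta and beat-VII also rose at stage 15. At stage 15 dpr17 averaged 8.07 CPM, against 3.81 CPM at stage 13 (adjusted p = 0.00179), and dpr13 averaged 5.72 CPM, against 1.87 CPM (adjusted p = 6.56e-06). DIP-beta averaged 3.68 CPM at stage 15 and 1.48 CPM at stage 13 (adjusted p = 0.0016), and beat-VII 2.70 and 0.151 CPM (adjusted p = 3.71e-09). side-III had 3.70 CPM at stage 8, and averaged 7.89 CPM at stage 15 and 2.65 CPM at stage 13 (adjusted p = 0.00113). On the gene's own strand side-III was not called at that step (log2 change 1.60, adjusted p = 0.0962), and beat-VII was not tested. For dpr18 and DIP-lambda, whose reads were partly on the other strand, the highest means were 2.73 CPM at stage 10 and 2.71 CPM at stage 5.

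Between the ends of the series, 35 of the 38 genes were higher at stage 15 than at stage 4 and 2 were lower, where 52.8% and 35.7% of all genes tested were called. The median log2 change was 7.36 over the 38 and 0.46 over all genes. In the counts without strand the largest fitted rises were those of side-V, beat-Ia, side and side-IV. In those counts beat-Ia and side-IV had 0 reads at stage 4 and were at least 1070-fold and at least 670-fold higher. side-V and side had 11333 and 5875 reads at stage 15 against 2 and 1 at stage 4. On the gene's own strand side-IV had the largest log2 change of these, 13.47, beside 11.7 for side-V, 11.43 for beat-Ia and 11.32 for side. dpr6 was lower (log2 change -5.08 ± 0.41, adjusted p = 2.39e-16), as was beat-Ib (log2 change -1.07 ± 0.36, adjusted p = 0.00522), whose call was lost without embryo B of stage 4 (adjusted p = 0.147), in the libraries with strand and by DESeq2. DIP-alpha ended close to where it began, at 13.0 ± 4.36 CPM at stage 15 and 13.9 ± 4.00 CPM at stage 4, and was not called.

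Genes whose proteins are known to bind each other did not all come on at the same stage. Per kb of exon, side reached 9.18 ± 1.54 CPM at stage 12, when beat-Ia stood at 1.55 ± 0.71 CPM, and beat-Ia reached 16.3 ± 2.92 CPM at stage 13. beat-IIb and side-IV rose over the same stages, with beat-IIb at 2.70, 13.2 and 14.2 CPM per kb at stages 12, 13 and 15, and side-IV, on its own strand, at 5.42, 28.7 and 52.6 CPM per kb. dpr12 and DIP-delta also rose together, to 0.339 and 0.155 CPM per kb at stage 13 and 1.69 and 0.821 CPM per kb at stage 15. For DIP-alpha, the dpr partner gene with the higher RNA level differed between stage 4 and stage 15. Binding of the proteins was not measured. dpr6 stood at 5.76 CPM per kb and dpr10 at 0.004 CPM per kb at stage 4, whereas at stage 15 dpr6 stood at 0.16 and dpr10 at 2.87 CPM per kb. At stage 8, where DIP-alpha was highest at 7.53 ± 2.99 CPM per kb, dpr6 had 0.18 CPM per kb and dpr10 had no reads.

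**Figure D5:**
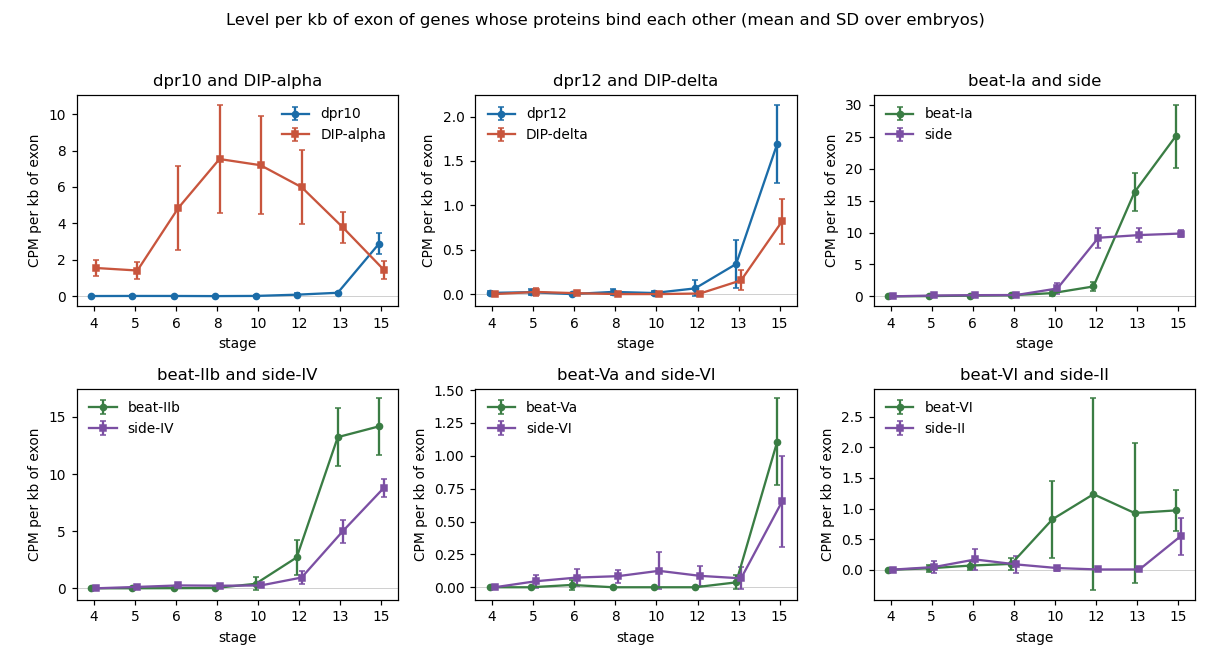
Mean level per kb of exon, in CPM, by stage for 6 pairs of genes whose proteins bind each other; bars are SD over embryos, and side-IV is shown as counted without strand. side rises at stage 12, before beat-Ia at stage 13, and DIP-alpha is highest at stage 8, while dpr10 is near 0 until stage 15.

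For dpr11 and DIP-gamma the strand matters. DIP-gamma was present at 0.283 to 1.24 CPM from stage 5 to stage 13 without strand, but 0 of those reads in libraries with strand came from the gene's strand before stage 15. At stage 15, the first stage with dpr11 at 1 CPM or more, DIP-gamma had 30 reads on its own strand and 7 on the other. At stages 5, 6, 8 and 10 beat-VI averaged 0.0902, 0.247, 0.346 and 2.92 CPM, and side-II averaged 0.244, 0.902, 0.472 and 0.156 CPM. beat-Va, beat-Vb and beat-Vc, all binding partners of side-VI, averaged 3.54, 0.747 and 0.713 CPM at stage 15, and each had 0 reads at stages 4, 5, 8, 10 and 12.

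Genes of the families that lie next to each other were unlike in some places and alike in others. dpr6 and dpr10 are 8.09 kb apart on chromosome 3L (positions 9974651 to 10139360 and 10147454 to 10186108 of BDGP6), on opposite strands, with the courses given above. beat-IIa and beat-IIb are 55.0 kb apart on 3R, on the same strand. In that order, their means were 5.53 and 6.64 CPM (stage 12), 31.0 and 32.5 CPM (stage 13), then 32.8 and 34.8 CPM (stage 15). beat-Ib, beat-Ic and beat-Ia lie in a row on 2L with gaps of 37.9 and 8.26 kb, and averaged 0.956, 2.60 and 71.9 CPM at stage 15. beat-IIIc lies 14.5 kb from beat-IIIa, whose 4457 exon bases all lie within CG34106 on the same strand and for which the files hold 0 reads, so the level of beat-IIIa cannot be read from these counts.

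DIP-zeta differed between embryos of one stage more than the means show. At stage 5 it had 7.40, 6.76 and 9.70 CPM in embryos B, C and I, and the other 6 embryos had 0 to 0.486 CPM. At stage 6 only embryo B was high, at 13.0 CPM, and the others had 0 to 0.283 CPM. At stage 8 embryos B, D and G had 8.88, 11.1 and 13.3 CPM, while C had 0.539 and H had 0. Stage 10 was split likewise, with 4.14 to 6.37 CPM in embryos C, E, G and I and 0 to 0.337 CPM in the other 5. B and D alone had reads at stage 12 (1.49 and 1.94 CPM) and D alone at stage 13 (1.46 CPM). All 8 stage 15 embryos had reads, at 0.748, 3.67 and 7.65 CPM (lowest, median, highest).

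Of the DIP-zeta reads in libraries with strand 97.05% lay on the gene's own strand. The rise at stage 15 against stage 13 (log2 change 4.05 ± 1.16, adjusted p = 0.00268) was lost in the libraries with strand alone (2.54, adjusted p = 0.224), and was 7.37 without embryo D of stage 13. Without embryo B of stage 6 a fall at stage 6 and a rise at stage 8 were called (adjusted p 0.0361 and 0.0157).

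beat-VI and beat-Ic were split in the same manner at other stages. beat-VI had 6.79 and 13.1 CPM in embryos B and H of stage 12 and at most 1.19 CPM in C, D and G. At stage 13 it had 10.2, 7.22 and 6.44 CPM in A, F and H and at most 1.25 CPM in the other 5, while the 8 stage 15 embryos ran from 2.04 to 5.66 CPM. beat-Ic was high in embryo I of stage 10, had 0 reads in the 5 stage 12 embryos, reached 3.48 CPM in embryo C of stage 13 with at most 0.324 CPM in the other 7, and had 1.496 to 3.68 CPM in the stage 15 embryos. The embryos that were high for one of these genes were not in each case high for the others: at stage 10 embryo I was high for all 3, but at stage 12 embryo H was high for beat-VI and had 0 reads of DIP-zeta. The cause of the split was not tested.

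The 15 genes that the filter left untested were DIP-gamma, DIP-iota, beat-IIIa, beat-IIIb, beat-IV, beat-Vb, beat-Vc, dpr2, dpr3, dpr4, dpr5, dpr15, dpr16, dpr20 and dpr21. Their highest stage means ran from 0 (beat-IIIa) to 2.10 CPM (beat-IV at stage 15). beat-IV had 112 reads at stage 15 and 3 at stage 13, and dpr5 had 64 and 5. At stage 15 dpr4, dpr5, dpr21, beat-IIIb, beat-IV and beat-Vb had reads in all 8 embryos, at means of 0.677 to 2.10 CPM. dpr16 had its highest mean, 1.57 ± 0.96 CPM, at stage 6. dpr3 and dpr15 did not pass 0.514 CPM at any stage, and most dpr3 reads lay opposite to the gene. With no filter, 52 of the 53 genes were tested, and 39 were higher at stage 15 than at stage 13, against 20.6% of 15940 genes.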

How the data were processed

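Per the labels' protocols, single embryos were staged by morphology, ribosomal RNA was depleted and libraries were sequenced. The authors deposited, per embryo, whole-number counts of reads per gene in 3 columns (without strand, strand of read 1, opposite strand). STAR 2.5.3a and the genome build dm6 are named in the submitters' processing notes; the annotation used for counting is not stated there. Symbols, positions and exon lengths came from Ensembl release 115 (BDGP6.54), matched on gene identifiers.

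The counts without strand were scaled by TMM, filtered with filterByExpr and fitted in edgeR 4.0.16 (R 4.3.3) with a mean per stage, all 54 embryos and 9783 genes. The steps were tested on simulated data. Library types differ only within stages 13 and 15. Rows naming no gene were left out: the share of uniquely mapped reads in no gene was 0.298 to 10.6%, and in several genes 4.17 to 5.64%. All 168 pairs of embryos within a stage differed by more than sampling noise (chi-square per degree of freedom at least 3.93). For same-letter embryos of different stages, deviations from the stage mean correlated at r of -0.27 to 0.25, over 0.1 in 13 of 43 pairs. The labels do not state that a letter pairs embryos, and a shared batch was not tested. At stages 13 and 15 the letter went with library type. Depth sets the precision: a floor is 3 reads over a stage.

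The members and gene lists were chosen with earlier results of these data known. Genes with values in every stage were those of the binding pairs, the up to 4 largest rises and 2 largest falls per comparison, the 2 highest genes per kb in each family at stage 15, those at 1 CPM or more at stage 4, those higher at stage 15 than at stage 4 with an earlier peak, and the untested ones; genes singled out for strand or for a split between embryos were chosen after their values were seen. Alternatives were DESeq2 1.42.0 and its size factors, no filter, the compared stages alone, libraries with strand alone, the gene's own strand, library type as a term, a block by letter and leaving out each embryo. Counts over genes with at least 80% of reads on their strand were added after seeing the data. A further DIP gene is not reported here.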

Additional observations from a re-analysis of the deposited data

Results flagged for a closer look

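Among 133 groups of embryos (a gene named with values in every stage, at a stage where it averaged at least 1 CPM), 9 held an embryo far from the rest by Dixon's criterion. Chance flags about 1 in 20 groups. The high embryos were G of stage 6 for dpr6 (2.41 CPM), C of stage 6 for DIP-alpha (79.6 CPM), A of stage 13 for dpr12 (4.38 CPM), D of stage 13 for beat-IIIc (67.8 CPM), I of stage 10 for beat-Ic (9.0 CPM) and B of stage 6 for DIP-zeta (13.0 CPM). The low embryos were D of stage 12 (0.864 CPM) and I of stage 15 (42.2 CPM) for beat-Ia, and H of stage 8 for side-IV (0 CPM without strand).

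Reads opposite to the gene, which enter the counts without strand, made up more than 20% in 12 genes. Over the 46 libraries with strand they numbered 96 for DIP-gamma, 175 for DIP-iota, 92 for DIP-lambda, 149 for DIP-theta and 38 for dpr3. They numbered 49 for dpr13, 183 for dpr14, 10 for dpr15, 214 for dpr18, 22 for dpr20, 18 for dpr21 and 44 for side-VI. Their source was not tested.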

How the results depend on the processing

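Of 5116 log2 changes recomputed for single genes, 72 lost and 50 gained a call, and 0 of those called at first changed sign. Counts over the 38 tested genes moved by over 1.5 times as follows. With the compared stages alone, fewer genes were tested: 7 were higher at stage 5 than at stage 4, 1 lower at stage 6, 1 higher at stage 8, 2 higher and 3 lower at stage 10, 5 higher at stage 12 and 18 higher at stage 15 than at stage 13, and 1 was lower at stage 15 than at stage 4. With libraries with strand alone and on the gene's own strand, 1 was higher at stage 8, 1 lower at stage 13, 16 higher at stage 15 than at stage 13, and 1 lower at stage 15 than at stage 4. On the own strand 2 were lower at stage 5. With DESeq2's size factors, its test, no filter or library type as a term 1 was higher at stage 8, and with all of these but no filter 1 was lower at stage 13. DESeq2's test called 1 lower at stage 15 than at stage 4. Apart from the smaller sets tested, the cause was not tested.

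Leaving out 1 embryo at a time gave 3 to 5 lower at stage 6, 1 to 3 higher at stage 8, 3 to 6 lower at stage 10 and 1 to 2 lower at stage 13. At stage 15 it gave 25 to 28 higher than at stage 13, and 33 to 35 higher and 1 to 2 lower than at stage 4. With the letter as a replicate block 1 gene was lower at stage 13. In that fit 28 genes were higher at stage 15 than at stage 13, and 35 were higher than at stage 4. What embryos of a letter share is not stated. DESeq2's size factors moved the median log2 change of all genes to 0.85 at stage 5 against stage 4, where TMM gave 0.72, and to 0.70 at stage 15 against stage 4, where TMM gave 0.46. Genes under about 1 CPM rest on few reads per embryo.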
